A study of Rattus norvegicus with 25 samples.

Results

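Endothelial cells line the blood vessels of the brain, and 9 genes that mark them or build the blood-brain barrier were examined in rat striatum: Cldn5, Cdh5, Flt1, Kdr, Tek, Pecam1, Slco1a4, Abcb1a and Vwf. Members were all probe sets whose platform annotation gives exactly 1 of these symbols. This gave 8 probe sets, 1 for each of 8 genes, out of 29214 in the deposited table. No probe set carries the symbol of Vwf, the clotting factor stored by endothelial cells, and no value is given for it. All 8 probe sets passed the filter on low values, which kept the 14607 probe sets whose mean over the arrays was at or above the median. Their means lay between the 63.2nd percentile (Cdh5) and the 89.6th percentile (Slco1a4) of all probe sets.

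In the brain, endothelial cells are sealed to each other by tight and adherens junctions, so that blood solutes cannot pass between the cells and must be carried through them. Growth of these vessels is driven by VEGF, which acts on receptor tyrosine kinases of the endothelial surface, and their stability by angiopoietins, which act on another such receptor. Pumps and carriers in the endothelial membrane then set which compounds enter the tissue or are returned to the blood.

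The study compared 3 groups of experimentally naive male Lister Hooded rats killed at postnatal day (PND) 35 to 42, with 1 Affymetrix rat gene 1.0st array of striatal RNA per rat. Con rats (n = 8) came from dams with free food and water, Nic rats (n = 7) from dams that drank nicotine solution before and during pregnancy, and Con-Pf rats (n = 10) from untreated dams given each day only as much food as matched nicotine dams had eaten. No offspring carried a transgene or was treated directly, so that each group stands for an exposure of the dam. The sources used here do not give the litter of each rat. The study's methods name fewer Con-Pf dams than the Con-Pf rats measured here. With these group sizes, some Con-Pf rats must therefore have shared a litter. The p-values measure the spread between rats and take each rat as independent, so that they would be too small where litters were shared. Values are log2 levels after RMA, the authors' background correction, quantile normalisation and summary of the probes. In striatal tissue fewer endothelial cells and less RNA per endothelial cell cannot be told apart.

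Con 3 and Con 5 stood apart from the other 23 arrays. On the first principal component, which held 30.4% of the variance, they scored -25.2 and -33.9, whereas the other arrays lay between -11.6 (Con 1) and 9.63 (Con-Pf 4). Differences of the members from Con are therefore given with and without both arrays. A second doubt concerned Con-Pf 9 and Con-Pf 10, which are Con-Pf by their titles but controls by their descriptions, and the group sizes in the study's methods match the first reading in one place and the second in another. Both were kept as Con-Pf, and the counts are also given without them and with both counted as Con. The medium spiny neuron genes Drd2 (12.4 to 12.7 over all arrays) and Ppp1r1b (12.7 to 13.0) were high on every array. Ttr, the defining gene of the choroid plexus, ranged from 6.92 to 13.7 between arrays, and Slc17a7, a cortical neuron gene, from 7.19 to 10.5. The mean deviation of 2 measured choroid plexus genes ranged from -1.27 to 3.10 in Con, from -1.32 to 1.28 in Nic and from -1.16 to 3.62 in Con-Pf, while that of 3 cortical neuron genes ranged from -0.33 to 0.80 in Con, from -0.40 to 1.42 in Nic and from -0.44 to 0.082 in Con-Pf. The leukocyte genes Ptprc and Cd3e and the platelet genes Pf4 and Ppbp were below the filter.

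None of the 8 members passed the test between any of the groups. In limma, a linear model with a moderated variance, fitted over all 14607 probe sets with Benjamini-Hochberg adjustment, 0 of the 8 members had an adjusted p under 0.05 in Con-Pf against Con, where 1.26% of all probe sets did. The count was 0 of 8 in Con-Pf against Nic (0.185% of all) and 0 of 8 in Nic against Con (0% of all). At an unadjusted p under 0.05 there was 1 member in the first comparison (22% of all probe sets), 0 in the second (4.36%) and 3 in the third (16.2%), by the methods' t-test with equal variances 1, 2 and 2, and with unequal variances 0, 2 and 2. With equal variances, 2469, 936 and 1555 of all 14607 probe sets had an unadjusted p under 0.05, in the same order of comparisons. Leaving out Con 3 and Con 5 gave 1, 2 and 0 members by limma, and 0 were called in each comparison. The adjusted calls were also 0 of 8 throughout with Con-Pf 9 and 10 left out or counted as Con, and the unadjusted counts were then 1, 0 and 2, and 0, 0 and 1. For unequal variances and for these changes of arrays, no unadjusted counts over all probe sets are given beside those of the members. The study's thresholds, an unadjusted p under 0.01 with a log2 difference of at least 0.5, were met by 0 members in each comparison, against 0.199%, 0.103% and 0.0205% of all probe sets. For 0 of the 8 were the arrays of any 2 groups fully separated, as they were for 0.274%, 0.0822% and 0.0274% of all probe sets.

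**Figure D1:**
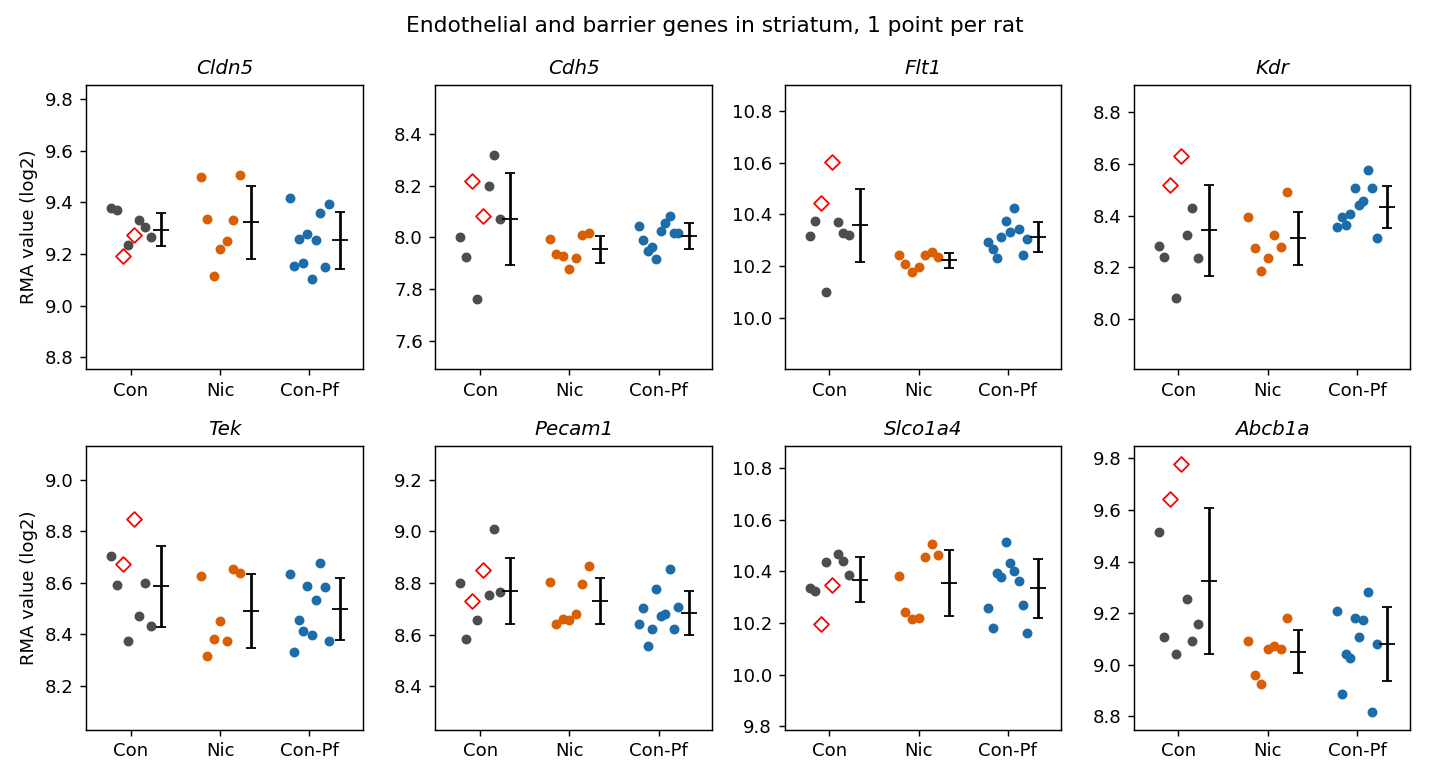
Log2 level of each of the 8 genes on each array, by group; the bar beside each group is the mean ± SD and open red diamonds are Con 3 and Con 5. The groups overlap for every gene, and the highest Abcb1a values, 9.78 and 9.64, are those of Con 5 and Con 3.

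Abcb1a, which encodes the efflux pump P-glycoprotein, had the largest difference of the members. In Con it was lowest at 9.04 in Con 4, with a median of 9.21, and highest at 9.78 in Con 5. In Nic it ran from 8.93 to 9.18 with a median of 9.06, and in Con-Pf from 8.82 to 9.28 with a median of 9.09. The Con group thus held the highest values, on Con 5, Con 3 and Con 1, while its other arrays lay among those of the other groups. Con-Pf minus Con was -0.24 (standard error 0.08, 95% confidence interval -0.42 to -0.07, adjusted p = 0.121 from limma). Nic minus Con was -0.27 (standard error 0.09, interval -0.46 to -0.08, adjusted p = 0.268). Without Con 3 and Con 5 these differences were -0.12 (adjusted p = 0.739) and -0.14 (adjusted p = 0.953). With Con-Pf 9 and 10 left out the first difference was -0.21, and with both counted as Con it was -0.14 (adjusted p = 0.508). Abcb1a in Con-Pf minus Nic was 0.029 (interval -0.15 to 0.21). This difference does not involve the Con values, but its interval rests on the spread of all 3 groups. The interval was -0.10 to 0.16 without Con 3 and Con 5. The spread of Abcb1a within groups, 0.19, was at the 86.5th percentile of all probe sets kept, whereas that of the other members lay between the 20.9th and the 64.0th.

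Slco1a4 encodes an organic anion carrier of the barrier, and its levels differed least between groups. It ranged from 10.20 to 10.47 in Con (median 10.37), from 10.22 to 10.51 in Nic (median 10.38) and from 10.16 to 10.51 in Con-Pf (median 10.37). The groups lay over each other, and Con 3 was the lowest Con array, where for Abcb1a it was the second highest. Slco1a4 differences were -0.033 for Con-Pf minus Con (interval -0.14 to 0.07), -0.021 for Con-Pf minus Nic (interval -0.13 to 0.09) and -0.012 for Nic minus Con (interval -0.13 to 0.10). When Con 3 and Con 5 were left out, the first was -0.065 and the last -0.044. Both transporter genes have close relatives in the genome, and whether their probes also bind RNA of these was not tested.

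The VEGF receptor genes Flt1 and Kdr were the members with the smallest p in the comparison of Con-Pf with Nic. Flt1 encodes VEGFR1, which binds VEGF and limits its action. It lay between 10.18 and 10.25 in the 7 Nic rats, a narrow range (median 10.23), between 10.23 and 10.42 in Con-Pf (median 10.31) and between 10.10 and 10.60 in Con (median 10.35). Apart from Con 4, the lowest array of all, the Con values were above every Nic value. Nic minus Con was -0.14 (standard error 0.05, interval -0.24 to -0.04, adjusted p = 0.268 from limma), and -0.080 without Con 3 and Con 5 (adjusted p = 0.953). Con-Pf minus Nic was 0.091 (standard error 0.05, interval -0.0042 to 0.19, adjusted p = 0.999). This interval rests on the spread of all 3 groups, which was widest in Con. The SD of Flt1 was 0.14 in Con (n = 8), 0.03 in Nic (n = 7) and 0.06 in Con-Pf (n = 10). Without Con 3 and Con 5 the Flt1 interval for Con-Pf minus Nic was 0.016 to 0.17 (adjusted p = 0.712 from limma). Con-Pf minus Con was -0.045 (interval -0.14 to 0.05, and 0.011 without Con 3 and Con 5).

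Kdr encodes VEGFR2, the receptor that passes on most of the growth signal of VEGF. Its range was 8.08 to 8.63 in Con (median 8.30), 8.18 to 8.49 in Nic (median 8.28) and 8.31 to 8.58 in Con-Pf (median 8.43). Con 5 and Con 3 were the highest Con arrays, and the ranges of all groups overlapped. Con-Pf minus Con was 0.090 (standard error 0.06, interval -0.028 to 0.21, adjusted p = 0.349 from limma). Here the difference was larger without Con 3 and Con 5, at 0.17 (interval 0.06 to 0.27), with an adjusted p of 0.221. Con-Pf minus Nic was 0.12 (standard error 0.06, interval -0.0023 to 0.24, adjusted p = 0.999). Without Con 3 and Con 5 the Kdr interval for this comparison was 0.022 to 0.22 (adjusted p = 0.699 from limma). Nic minus Con was -0.031, and 0.046 when Con 3 and Con 5 were left out. Over all arrays Kdr was the only member whose mean was higher in Con-Pf than in both other groups, and without Con 3 and Con 5 Flt1 was another.

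Tek encodes TIE2, the angiopoietin receptor. It ranged from 8.37 to 8.85 in Con, from 8.32 to 8.65 in Nic and from 8.33 to 8.68 in Con-Pf, and only Con 5 and Con 1 (8.70) lay above the highest arrays of the other groups. Con-Pf minus Con was -0.087 (interval -0.22 to 0.04), Nic minus Con was -0.095 (interval -0.24 to 0.05) and Con-Pf minus Nic was 0.0079 (interval -0.13 to 0.14). Without Con 3 and Con 5 the first of these was -0.030 and the second -0.038.

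Cldn5, the claudin that closes the tight junctions of brain vessels, ran from 9.19 to 9.38 in Con (median 9.29), from 9.12 to 9.51 in Nic (median 9.33) and from 9.10 to 9.42 in Con-Pf (median 9.26). The groups overlapped, Con 3 was the lowest Con array, and the highest arrays were Nic 7 and Nic 1. Con-Pf minus Con was -0.041 (standard error 0.05, adjusted p = 0.649 from limma), Con-Pf minus Nic was -0.069 and Nic minus Con was 0.028, and the intervals of all 3 lay between -0.18 and 0.14. The differences of Cldn5 from Con were -0.061 in Con-Pf and 0.0073 in Nic when Con 3 and Con 5 were left out. Cdh5 encodes VE-cadherin, the adherens junction protein of endothelial cells. Its Con arrays spread from 7.76 to 8.32 (SD 0.18, n = 8), whereas its Nic arrays lay between 7.88 and 8.02 (SD 0.05, n = 7) and its Con-Pf arrays between 7.92 and 8.08 (SD 0.05, n = 10). The wider spread of Con did not rest on Con 3 and Con 5, since the SD was 0.20 without them. Nic minus Con was -0.12 (standard error 0.06, interval -0.24 to -0.0019, adjusted p = 0.302) and Con-Pf minus Con was -0.067 (interval -0.17 to 0.04). For Cdh5 these were -0.092 (adjusted p = 0.953) and -0.041 without Con 3 and Con 5.

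Pecam1 encodes an adhesion molecule of endothelial junctions that platelets and leukocytes carry as well. It ranged from 8.58 to 9.01 in Con, from 8.64 to 8.87 in Nic and from 8.56 to 8.85 in Con-Pf. The highest value was that of Con 7, and otherwise the groups lay over each other. The difference was -0.085 for Con-Pf minus Con (standard error 0.05, interval -0.19 to 0.02, adjusted p = 0.300 from limma), -0.040 for Nic minus Con and -0.045 for Con-Pf minus Nic. For Pecam1 the first was -0.078 and the second -0.033 without Con 3 and Con 5.

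Most members had a lower mean in Con-Pf and in Nic than in Con, by amounts that did not pass. In Con-Pf minus Con 7 of the 8 differences were below 0, where 44.2% of all probe sets were, and their median was -0.056 against 0.015 over all probe sets. In Nic minus Con 7 of 8 were below 0 (40.9% of all), with a median of -0.068 against 0.024. Both comparisons share the Con arrays, so that their common direction is no second observation. When Con 3 and Con 5 were left out, 6 of 8 were below 0 in each, with medians of -0.051 and -0.041. In Con-Pf minus Nic 3 of 8 were below 0 (55.9% of all) and the median was 0.019 against -0.0082. In the fit with all arrays, the intervals of the 8 members lay between ratios of 0.749 and 1.16 in Con-Pf over Con. They lay between 0.883 and 1.18 in Con-Pf over Nic, and between 0.726 and 1.11 in Nic over Con.

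**Figure D2:**
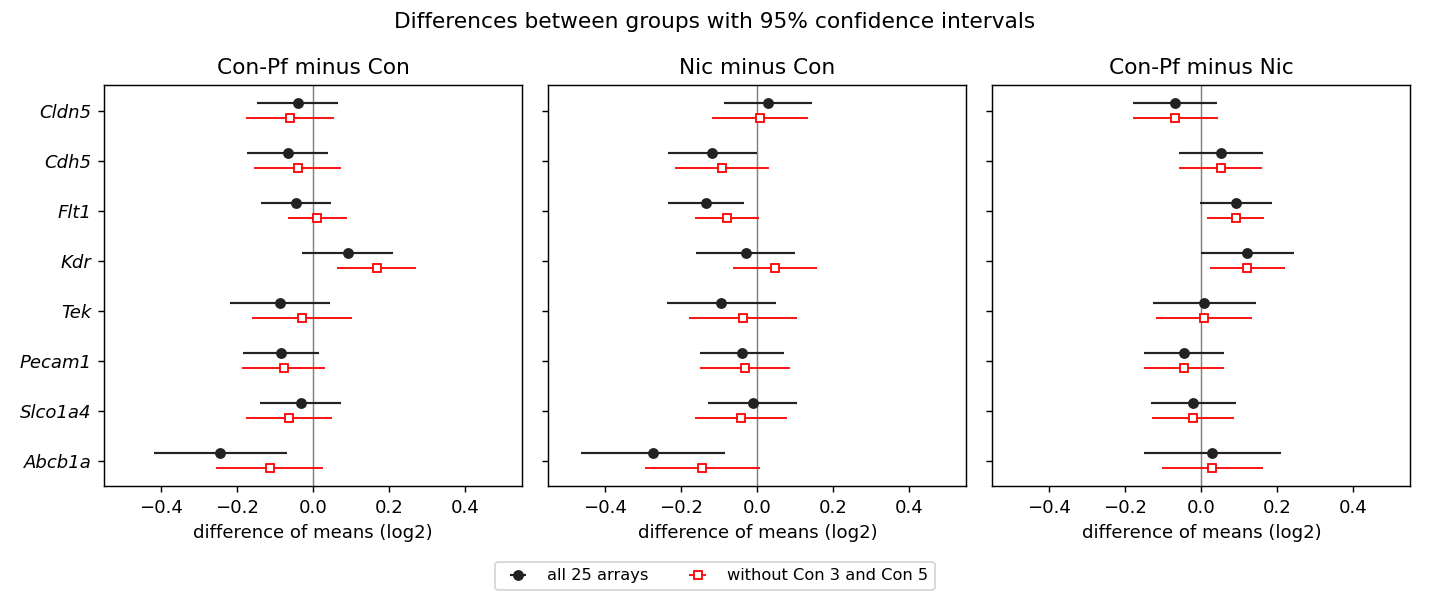
Difference of group means on the log2 scale for each gene, with 95% confidence intervals from limma, over all 25 arrays (black circles) and without Con 3 and Con 5 (open red squares). For Abcb1a the difference from Con moves from -0.24 to -0.12 in Con-Pf and from -0.27 to -0.14 in Nic when both arrays are left out.

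Within groups the levels of most members were weakly to strongly correlated from rat to rat. After the mean of each group was removed, the correlation was above 0 for 28 of 28 pairs of members over the 25 arrays, with a median r of 0.35 and a range from 0.0090 to 0.75. With Con 3 and Con 5 left out it was again above 0 for 28 of 28 pairs (median 0.38, range 0.11 to 0.72). Over all pairs of the 14607 probe sets, 53.2% were above 0 with a median r of 0.030, and 55.2% with a median of 0.044 without both arrays. Slco1a4 was close to 0 over all arrays with Abcb1a (0.0090), Cdh5 (0.014) and Flt1 (0.054). Kdr had the highest correlations with the other members (median r 0.60, and 0.55 without both arrays). Its highest value over all arrays was 0.75 with Flt1, which was 0.55 without them, and without them it was 0.72 with Pecam1. Abcb1a reached 0.73 with Flt1 and 0.67 with Tek, and 0.49 and 0.57 without both arrays, when its highest value was 0.58 with Cldn5. Slco1a4 (median r 0.16) and Cldn5 (median r 0.18) had the lowest medians over all arrays. Without both arrays these were 0.31 and 0.36, and Cdh5 (0.33) was then below Cldn5. These values are descriptions: all pairs come from the same arrays and share their RNA quality, tissue piece and normalisation. The mean deviation of the 8 members was highest on Con 5 (0.21) and lowest on Nic 3 (-0.14), and the groups overlapped, with -0.13 to 0.21 in Con, -0.14 to 0.08 in Nic and -0.10 to 0.10 in Con-Pf.

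**Figure D3:**
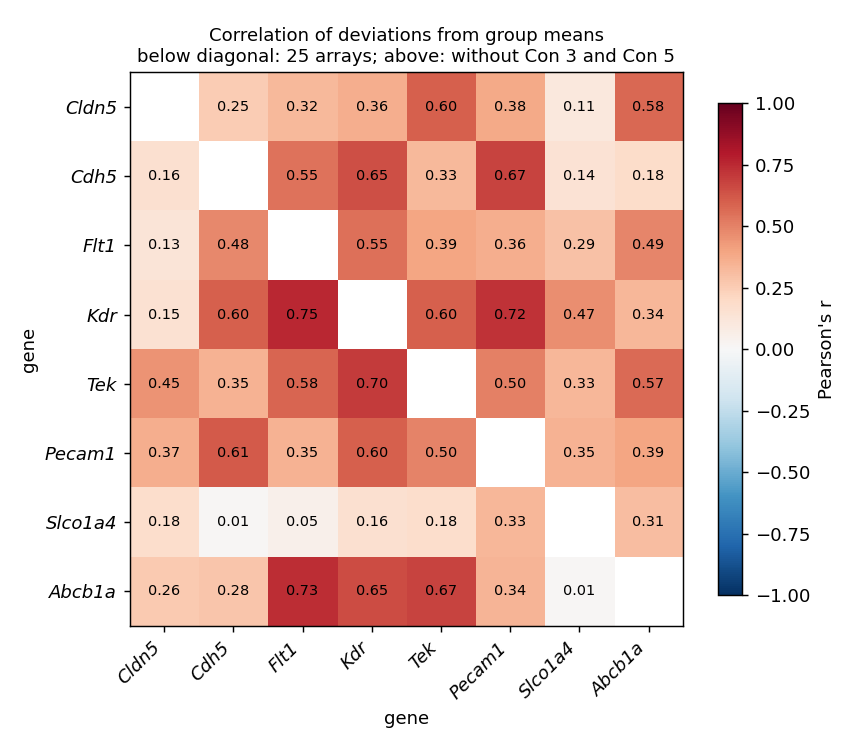
Pearson's r between the 8 genes after removal of group means, below the diagonal over 25 arrays and above it without Con 3 and Con 5. All cells are above 0; Kdr with Flt1 is highest below the diagonal (0.75) and Kdr with Pecam1 above it (0.72).

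The sequences before the start sites of 3 members are shown. Flt1 and Kdr were taken as the most correlated pair over all arrays (0.75). Without Con 3 and Con 5 their r was 0.55, and Kdr with Pecam1 was highest (0.72). Cldn5 was taken because over all arrays its r with Flt1 and Kdr was low (0.13 and 0.15, but 0.32 and 0.36 without Con 3 and Con 5). Each sequence holds the 250 bases before the start site, 5′ to 3′ on the strand of the gene. The sequences are from RefSeq (build GRCr8), which gave such a window for 5 of the 9 genes. Flt1 lies at chr12:12333180-12333429 on the + strand, Kdr at chr14:32571813-32572062 on the + strand and Cldn5 at chr11:95718599-95718848 on the - strand. Capitals mark GGAA, the core bound by ETS factors, several of which act in endothelial cells, or its reverse complement TTCC.
Flt1: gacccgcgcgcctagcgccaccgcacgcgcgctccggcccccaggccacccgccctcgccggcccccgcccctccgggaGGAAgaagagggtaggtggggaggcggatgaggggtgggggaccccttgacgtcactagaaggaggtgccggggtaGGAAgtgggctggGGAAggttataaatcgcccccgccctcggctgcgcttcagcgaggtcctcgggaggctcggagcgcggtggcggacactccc
Kdr: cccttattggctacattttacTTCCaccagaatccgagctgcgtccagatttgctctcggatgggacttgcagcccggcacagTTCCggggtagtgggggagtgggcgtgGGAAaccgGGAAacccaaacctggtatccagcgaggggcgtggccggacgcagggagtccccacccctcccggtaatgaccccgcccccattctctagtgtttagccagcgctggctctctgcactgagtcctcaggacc
Cldn5: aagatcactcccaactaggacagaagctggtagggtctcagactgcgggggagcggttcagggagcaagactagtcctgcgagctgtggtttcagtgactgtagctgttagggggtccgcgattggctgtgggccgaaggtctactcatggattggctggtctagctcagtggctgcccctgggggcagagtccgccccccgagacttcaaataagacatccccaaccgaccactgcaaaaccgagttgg

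There were 3 matches before Flt1, 4 before Kdr and 0 before Cldn5, and of the members not printed 5 before Slco1a4 and 2 before Abcb1a. Slco1a4, with the most matches, also had a low r with Flt1 (0.054) and Kdr (0.16) over all arrays. Without Con 3 and Con 5 these were 0.29 and 0.47. Whether the number of matches goes with the correlations was not tested. With 4 letters this core is common, and 93.2% of the 33465 windows of the same length held it on either strand. At least 3 matches were found in 55.5% of all windows and at least 4 in 34.7%. The longer form CCGGAA was present in 1 of the 5 member windows, that of Kdr (12.6% of all windows), and CAGGAA in 0 of 5 (24.7% of all). Both longer forms include the core, and a match of letters is no evidence of binding.

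Genes outside the list were ranked by how they varied with the members. Of all probe sets kept that carry 1 symbol, the 10 with the highest correlation to the mean of the members after removal of group means were Abcc4 (r = 0.78), Csf1r (0.78), Wdtc1 (0.78), Bdh1 (0.77), Usp53 (0.77), Adgrf5 (0.77), Nfkb1 (0.76), Rap1gap2 (0.75), Traf3 (0.74) and Slco2b1 (0.74), over 25 arrays. For Abcc4 this was 1 of its probe sets, and not the brightest, which stood for the gene in the list of barrier transport. Abcc4 and Slco2b1 encode membrane transporters of the barrier, Adgrf5 an adhesion receptor of endothelial cells and Csf1r the growth factor receptor of microglia. Wdtc1, Bdh1, Usp53, Nfkb1, Rap1gap2 and Traf3, like Adgrf5, were in none of the vascular or cell marker lists described below. The values are the highest of many, and how high the highest would be for other sets of genes was not tested. These 10 had values of 0.67 to 0.76 without Con 3 and Con 5, and 6 of them were then still among the 10 highest, while Adgrf5, Rap1gap2, Traf3 and Slco2b1 were not. In their place stood Adgrl4 (0.75), an endothelial adhesion receptor gene, Adgre1 (0.74), a macrophage gene, Grb10 (0.73) and the ETS factor gene Fli1 (0.73). For single members the closest gene was Abcc9 (1 of its probe sets) for Kdr (r = 0.87), a potassium channel subunit gene of pericytes, Capn2 for Abcb1a (0.92), Rprd1b for Flt1 (0.89), Map2k5 for Slco1a4 (0.81), Itgb5 for Tek (0.78), Abhd8 for Cdh5 (0.78), Gpc5 for Pecam1 (0.72) and Gpr135 for Cldn5 (0.71). Without both arrays the closest gene was another for Cldn5 (Sox17, 0.80), Cdh5 (Cyyr1, 0.84), Tek (Dnajc10, 0.76) and Pecam1 (Ets1, 0.74).

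A few other vascular genes passed between Con-Pf and Con. Of 87 further genes of 8 vascular lists measured, 4 rose and 2 fell in Con-Pf against Con (6.9%, beside 1.26% of all probe sets). The lists were chosen with earlier results of these data known, and the brightest probe set stood for each gene. The 2 shares are therefore not alike, and an excess among vascular genes was not tested. Of the same 87 genes 0 passed when Con-Pf was set against Nic, and 0 for Nic and Con. The number of calls in the first comparison was 4 without Con 3 and Con 5 (85 of all probe sets) and 5 without Con-Pf 9 and 10 (116 of all). With Con-Pf 9 and 10 counted as Con it was 2 (Slc19a3 and Edn1), so that the other 4 calls depend on how these arrays are labelled, and 27 of all 14607 probe sets were called then, against 184 with both as Con-Pf. The median difference of the 87 genes was -0.013, -0.0044 and 0.0048. Edn1, the gene of the vasoconstrictor endothelin, rose by 0.45 (standard error 0.07, 7.81 in Con-Pf and 7.36 in Con), and was the only one called of 8 genes of vascular tone and haemostasis. Klf4, a transcription factor gene induced by flow and also one of the immediate early genes, rose by 0.42 (standard error 0.06). Tm4sf1, a surface protein gene of endothelial cells, rose by 0.40 (standard error 0.07). The adjusted p from limma was 0.000285 for both Edn1 and Klf4 and 0.00302 for Tm4sf1. These 3 also passed without Con 3 and Con 5 (adjusted p = 0.00302 for Edn1, 0.00171 for Klf4 and 0.0355 for Tm4sf1). With Con-Pf 9 and 10 counted as Con, Edn1 passed (0.40, adjusted p = 0.0333), whereas Klf4 (0.30, adjusted p = 0.230) and Tm4sf1 (0.34, adjusted p = 0.121) did not.

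Barrier transport held the other 3 calls, of 16 genes measured. The thiamine carrier gene Slc19a3 fell by 0.42 (standard error 0.06, adjusted p = 4.00e-05 from limma), and the amino acid carrier gene Slc7a5 fell by 0.29 (standard error 0.06, adjusted p = 0.0168). The monocarboxylate carrier gene Slc16a1 rose by 0.18 (standard error 0.04, adjusted p = 0.0288). Of these only Slc19a3 passed without Con 3 and Con 5 (adjusted p = 0.000365), while Slc7a5 and Slc16a1 both had an adjusted p of 0.126. With Con-Pf 9 and 10 counted as Con the adjusted p was 0.0389 for Slc19a3 (-0.35), 0.133 for Slc7a5 (-0.27) and 0.383 for Slc16a1 (0.12). Slc16a1 also did not pass without Con 3, Con-Pf 4, Con-Pf 7 or Con-Pf 9 alone, with an adjusted p of up to 0.0790. The median of the list was -0.11 (-0.074 without both arrays). All 3 carriers are also made by other cells of the brain.

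In the other 4 lists 0 genes passed. The gene with the smallest p in Con-Pf against Con was Fzd4 among 10 genes of Wnt and Norrin signalling to the barrier (-0.22, standard error 0.06, adjusted p = 0.0503 from limma), Nrp1 among 8 VEGF and angiopoietin genes (-0.20, adjusted p = 0.0926), Lsr among 10 junction genes (0.19, adjusted p = 0.112) and Hey2 among 10 Notch and arterial genes (0.29, adjusted p = 0.0852). Without Con 3 and Con 5 the values were -0.15 for Fzd4 (adjusted p = 0.365), -0.10 for Nrp1 (0.576), 0.12 for Lsr (0.634) and 0.18 for Hey2 (0.548). Fzd4 is the receptor of Norrin, Nrp1 a co-receptor of VEGF and Lsr a protein of junctions where 3 cells meet. In the comparison of Con-Pf with Nic the smallest adjusted p of the 8 lists was that of Slc19a3 (-0.27, adjusted p = 0.0578), followed by Klf4 (0.29, adjusted p = 0.0686).

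**Figure D4:**
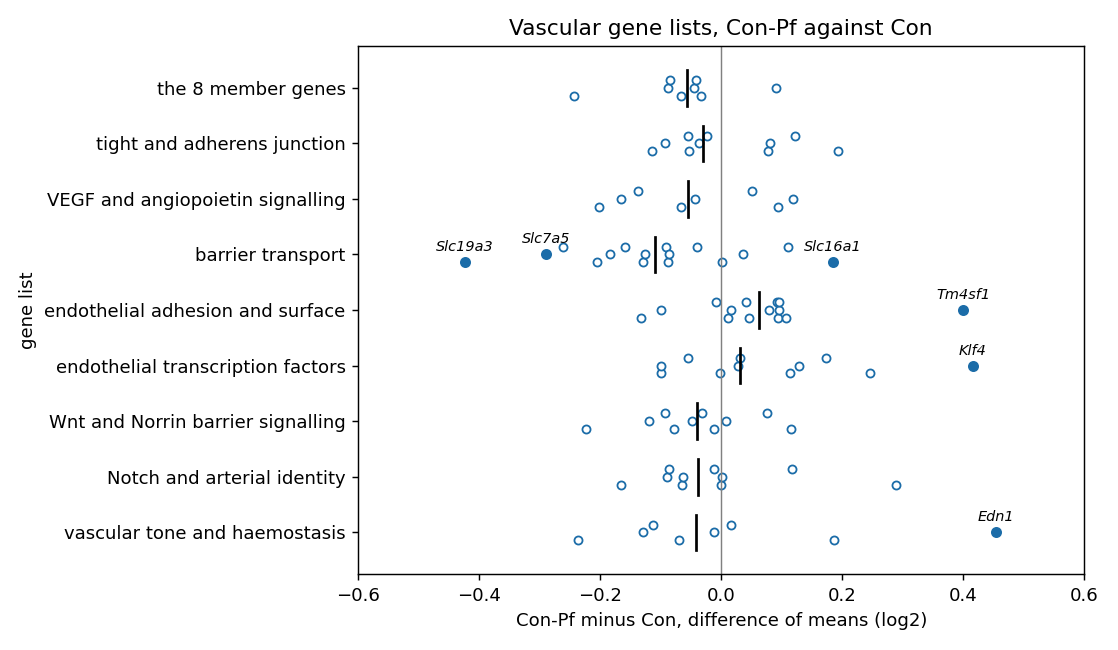
Con-Pf minus Con on the log2 scale for the 8 members and for the measured genes of 8 further vascular lists; filled points have an adjusted p under 0.05 from limma, and black bars are medians. The members lie between -0.24 and 0.09, while Edn1, Klf4, Tm4sf1 and Slc16a1 lie above 0 and Slc19a3 and Slc7a5 below it as filled points.

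Cells that lie beside the endothelium were not called either. Of 11 pericyte and smooth muscle markers 0 passed in each comparison, with a median of -0.039 in Con-Pf minus Con and Abcc9 as the gene with the smallest p (-0.35, standard error 0.10, adjusted p = 0.0843 from limma, and -0.17 without Con 3 and Con 5). Of 11 astrocyte markers 0 passed (median -0.051), and Slc1a2 had the smallest p (-0.11, and -0.057 without Con 3 and Con 5). Counts of 0 were also found for 10 microglia and macrophage, 8 meningeal and fibroblast, 3 red cell and platelet, 8 oligodendrocyte, 10 striatal neuron and 3 cortical neuron markers, as well as the 2 choroid plexus genes, in each of the 3 comparisons. Medians lay furthest from 0 in the lists of few genes. For the 3 cortical neuron markers the median was -0.53 in Con-Pf minus Nic, with 2 of 3 at an unadjusted p under 0.05 (Slc17a7 -1.18, adjusted p = 0.576 from limma), -0.19 in Con-Pf minus Con and 0.33 in Nic minus Con. For the 2 choroid plexus genes it was 0.38 in Con-Pf minus Con (0.046 without Con 3 and Con 5) and 0.36 in Con-Pf minus Nic. The part of either in the values of the members was not tested.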

How the data were processed

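RNA of 25 striata was measured on Affymetrix arrays (Con, n = 8; Nic, n = 7; Con-Pf, n = 10). The authors made the deposited log2 values with RMA; the submitters' processing notes also name Affymetrix Expression Console 1.1. The authors had discarded some Con and Nic arrays for quality before deposit. They had kept a sample with a low RNA integrity reading, which they put down to a likely technical problem of that measurement. The sample is not named, so whether it is among the 25 arrays is not known. Group and replicate were taken from the title. Con-Pf 9 and 10, described as controls, were kept as Con-Pf.

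Probe sets with a mean below the median (quantile 0.5) were removed, which left 14607 of 29214. Of all probe sets 15310 carry 1 symbol, 323 several and 13581 none, and 15279 of the first were found by gene ID in RefSeq. For listed genes the brightest probe set stood for the gene. All group differences came from limma (version 3.58.1, R 4.3.3), fitted as 1 model over the 3 groups, with Benjamini-Hochberg adjustment over all probe sets kept. The methods' t-test was an alternative, with unequal and with equal variances. The methods do not say which form was run, but t and p values that the study printed go with unequal variances. The steps were tested on simulated data. Figures were drawn with matplotlib 3.10.9.

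The members and the gene lists were chosen with earlier results of these data known. Named are all members, the called genes of each list (otherwise examples with the smallest p), and the genes most correlated with the members. Alternatives were other filters (none, quantile 0.75), other scalings, the compared groups alone, other treatments of Con-Pf 9 and 10, a replicate block, and leaving out Con 3 and Con 5 or each array. Those for the vascular lists and the form with equal variances were chosen after seeing the data. The array number limits precision, and probe signal over background was not analysed here.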

Additional observations from a re-analysis of the deposited data

How the results depend on the processing

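Under each alternative run, 0 members were called in each of the 3 comparisons, and with 1 array left out their median difference ranged from -0.092 to -0.044 in Con-Pf minus Con, from -0.097 to -0.043 in Nic minus Con and, with a change of sign, from -0.0035 to 0.042 in Con-Pf minus Nic. The stricter filter kept 4 of the 8 members. Single differences changed sign where they were close to 0. With Con-Pf 9 and 10 counted as Con, Slco1a4 was 0.027 in Con-Pf minus Con, 0.0088 in Con-Pf minus Nic and 0.018 in Nic minus Con, and 0.0088 in Con-Pf minus Nic with both left out. Without Con 3 and Con 5, Flt1 was 0.011 in Con-Pf minus Con and Kdr 0.046 in Nic minus Con. With each array centred on its median, Tek was -0.0075 in Con-Pf minus Nic. With 1 array left out, Con-Pf minus Nic ranged from -0.021 to 0.035 for Tek and from -0.044 to 0.0041 for Slco1a4, and Nic minus Con from -0.0028 to 0.062 for Cldn5, from -0.037 to 0.011 for Slco1a4 and from -0.068 to 0.010 for Kdr. The lowest adjusted p of any member with 1 array left out was 0.0606, for Abcb1a in Con-Pf minus Con without Con 7. Among the vascular lists, where 6 genes were called in Con-Pf minus Con, 5 to 9 were called with 1 array left out (9 without Con 4 or Con 7). Calls over all 14607 probe sets rose as well, from 184 to 285 without Con 4 and to 480 without Con 7. In Con-Pf minus Nic, where 0 were called, there were 2 without Con 2 (Slc19a3 and Klf4), 1 without Con 1, Nic 2 or Con-Pf 8 (Slc19a3) and 1 without Con-Pf 3, Con-Pf 7 or Con-Pf 9 (Klf4). Of all probe sets 30 were called in this comparison without Con 2, against 27 with all arrays.

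Same-numbered rats of 2 groups correlated in their deviations from the group means by -0.36 to 0.34 (medians 0.10, 0.11 and -0.049), so the numbers were not taken to pair the animals. The block moved the probe sets called from 132 to 153 in Con-Pf minus Con and from 17 to 14 in Con-Pf minus Nic. In a fit with replicates 1 to 7 as a replicate block 0 members were called, with a median of -0.073 in Con-Pf minus Con, and in Con-Pf minus Nic Slco1a4 was 0.0092 and Tek -0.012, the same as for these replicates with no block. With 7 to 10 arrays per group, the intervals of the members set the size of difference that could be seen.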
